A study of Homo sapiens with 8 samples.

Results

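The long intergenic noncoding RNAs that carry a LINC name were followed in colorectal cancer DLD1 cells after UHRF1 depletion, HDAC inhibition or both. Members were all non-control probes of the array whose gene name in the files is LINC followed by a number. This gave 228 probes for 133 genes out of 50599 probes and 36337 gene names. A single probe stood for 78 of the genes, and 55 had several, up to 9. DLD1 is an established colon adenocarcinoma line, which the study counts among lines with the CpG island methylator phenotype. Cells received a control siRNA (siCONT) or 1 of 2 siRNAs against UHRF1 (siUHRF1-1 and siUHRF1-2). After 48 h, ethanol (mock) or 300 nM trichostatin A (TSA) was added for another 24 h. This made 4 groups of 2 arrays, namely control cells under mock, depleted cells under mock, control cells under TSA, and depleted cells under TSA (called the combination here). The arrays of a depleted group stand for siUHRF1-1 and siUHRF1-2. All cells were of 1 line, and neither the labels nor the methods say whether the arrays of a siCONT group came from separate cultures, so p-values measure the spread between these samples, which may be technical.

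LINC symbols are provisional names given to long noncoding transcripts that lie between or beside protein-coding genes. Several were later renamed for a function or found to hold a short reading frame. Many such RNAs are restricted to a tissue or developmental stage and are present at low levels elsewhere. UHRF1 brings the maintenance methyltransferase DNMT1 to newly copied DNA, and TSA inhibits histone deacetylases, so both act on chromatin marks that keep genes silent. In bulk RNA, fewer cells with a transcript and less transcript per cell cannot be told apart.

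The unit of a level is the log2 of the intensity after subtracting the array's own 75th percentile, and a probe at 0 is therefore as bright as that percentile. Per array, 21927 to 24291 probes had a signal well above background. Within a siCONT group the arrays were apart by 1.04 to 1.16 times the noise between repeated spots, against 9.10 to 11.8 times for the siRNAs. Means of siCONT groups therefore carry no SD. The adjusted p-values of single genes come from a fit of all 8 arrays, and a fit with each siCONT pair averaged to 1 sample stands beside the counts. Of 50 named changes, 20 kept their call in the averaged fit. The UHRF1 probe A_23_P208880 changed by −1.83 after depletion under mock (SE 0.22, adjusted p = 0.0120) and by −2.87 under TSA (SE 0.22, adjusted p = 0.00237). Neither passed in limma's averaged fit, with adjusted p = 0.249 and 0.0539. UHRF1 itself was also lower with TSA, by −0.97 in siCONT cells (SE 0.22, adjusted p = 0.0176), short of 2-fold. In depleted cells TSA changed it by −2.01 (SE 0.22, adjusted p = 0.00134). The combination changed it by −3.84 from siCONT with mock (SE 0.22, adjusted p = 0.000155). All 8 epithelial markers were well above background on every array. Among the markers of blood, endothelial and stromal cells given here, PTPRC, CD3E, PECAM1 and COL3A1 were above background on none. VWF was above background on 6 arrays, those outside siCONT with mock, and COL1A1 on the 4 TSA arrays. DCN was so on 1 array, and the part of these genes in the LINC values was not tested. Since all mock arrays shared one row of the slide and all TSA arrays the other, TSA and row cannot be told apart. The siCONT arrays took columns 1 and 2 and the depleted ones columns 3 and 4, so depletion and column cannot be either.

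The sequences below belong to members on which the results turn. The probes are copied from the files in hg19 coordinates, and are printed without capitals. LINC00319 and LINC00346 rose from below background, LINC00029 was seen in 1 group alone, and the 3 LINC00173 probes gave different answers.
LINC00319, probe A_32_P214178, chr21:44873218-44873277, plus strand: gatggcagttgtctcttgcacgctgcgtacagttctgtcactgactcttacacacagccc
LINC00346, probe A_23_P368909, chr13:111521800-111521859, minus strand: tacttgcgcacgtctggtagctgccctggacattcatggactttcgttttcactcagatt
LINC00029, probe A_23_P165921, chr20:61665622-61665681, minus strand: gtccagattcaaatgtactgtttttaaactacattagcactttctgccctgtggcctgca
LINC00173, probe A_21_P0007502, chr12:116972087-116972146, plus strand: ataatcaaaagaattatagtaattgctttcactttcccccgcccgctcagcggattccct
LINC00173, probe A_33_P3331511, chr12:116973091-116973150, plus strand: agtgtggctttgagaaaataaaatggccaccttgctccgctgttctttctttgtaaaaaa
LINC00173, probe A_21_P0000535, chr12:116974257-116974316, plus strand: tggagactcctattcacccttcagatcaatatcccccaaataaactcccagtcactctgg

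Detection was compared first. Detection in a group required a signal well above background on each of its arrays. In siCONT with mock, 57 of the 228 LINC probes (25.0%) were detected. After UHRF1 depletion this was 60 (26.3%), with TSA 66 (28.9%) and in the combination 70 (30.7%). By genes, 35, 37, 42 and 45 of 133 had a detected probe in the same order, which was not counted over all genes. The share was lower than that of all probes in each group, which was 41.8%, 43.2%, 44.6% and 45.3%. Other RefSeq noncoding RNAs lay in between, at 38.2%, 40.4%, 41.4% and 42.6% of 3758 probes. These shares are counts and were not tested.

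Of the LINC probes, 52 were well above background on all 8 arrays, 39 on 1 to 7 arrays and 137 on none. All arrays detected 22.8% of LINC and 39.3% of all probes, and none detected 60.1% and 45.3%. For 74 genes every probe was on no array, a count not made over all genes. Both siCONT with mock and the combination detected 54 probes. A further 16 (7.02%) were on both arrays of the combination and on no array of siCONT with mock, and 0 showed the opposite pattern. Over all probes these shares were 3.85% and 0.626%. Chromosome 21 contributed 40 probes of 25 genes and 10 of these 40 were above background on any array. Of all LINC probes 39.9% were so, and of all probes 54.7%. Other chromosome 21 probes were not counted, so this is no trait of LINC genes there.

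**Figure D1:**
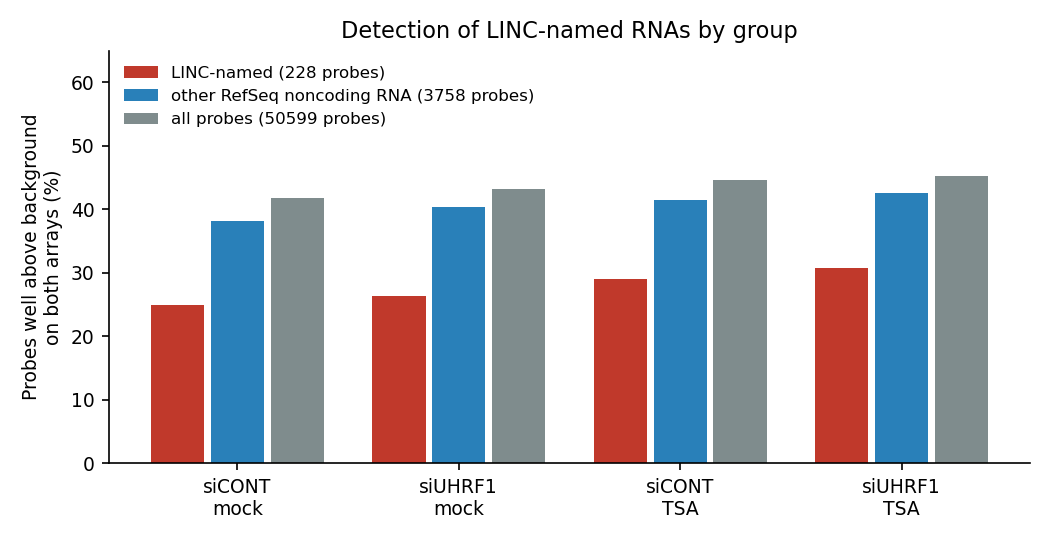
Share of probes well above background on both arrays of a group (y axis, percent) for the 4 groups (x axis), for LINC-named probes, other RefSeq noncoding RNAs and all non-control probes. The LINC bars run from 25.0% in siCONT with mock to 30.7% in the combination and stay under the other bars in all 4 groups.

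The combination was compared with siCONT plus mock, the widest contrast of the design. Of 73 LINC probes tested with limma, 24 rose and 2 fell by at least 2-fold at an adjusted p under 0.05. Over all probes tested, 14.6% were called higher and 11.0% lower. When each siCONT pair was averaged to 1 sample, 18 LINC probes were higher and 1 lower, while 15.4% of all probes were called in either direction. By genes, 18 of 47 had a probe that rose and 2 a probe that fell, which was not counted over all genes. Among the 52 probes on all arrays, which passed no filter through one group alone, 9 rose and 2 fell (17.3% and 3.85%), against 7.89% and 11.3% of the 19907 such probes of the whole array. Their median change was 0.08, and −0.20 over all such probes. With no filter on dim probes, 20 of 228 LINC probes rose and 4 fell, which is 10.5% called against 12.7% of all probes. The share called was thus below that of all probes without the filter and above it with the filter, at 35.6% against 25.6%. Scaling by the median instead put the median over all probes at −0.54, and 19 LINC probes were higher and 7 lower (73.1% higher of those called, against 92.3%). Over all probes that scaling gave 31.6% higher of those called, against 56.9%.

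LINC00319 and LINC00346 had the highest bounds among genes below background in siCONT with mock. LINC00319 had levels of −5.71 and −5.76 in siCONT with mock, −5.06 (siUHRF1-1) and −2.56 (siUHRF1-2) after depletion, −0.89 and −0.96 with TSA, and −0.30 and 0.43 in the combination. All TSA arrays were above all mock arrays, and the siRNAs were far apart under mock, where only siUHRF1-2 gave a signal well above background. As neither siCONT mock array did, the rise is a bound. Here and below, a probe with a bound entered its test through the brighter group alone. Its p-value is therefore not independent of that filter. The combination was at least 11.0-fold higher (adjusted p = 0.00172), and TSA alone at least 5.54-fold (adjusted p = 0.00496). LINC00346, renamed PRECSIT for a role with p53 and STAT3 in carcinoma cells, had levels of −5.50 and −5.55, −3.18 and −4.04, −1.70 and −1.85, and −0.66 and −0.32 in the same order. The 4 groups did not overlap, and the combination lay at the top. The rise over siCONT with mock was at least 7.49-fold (adjusted p = 0.000152) and that over siCONT with TSA 1.28 on the log2 scale (SE 0.29, adjusted p = 0.0321). TSA alone raised LINC00346 at least 3.08-fold (adjusted p = 0.000616).

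**Figure D2:**
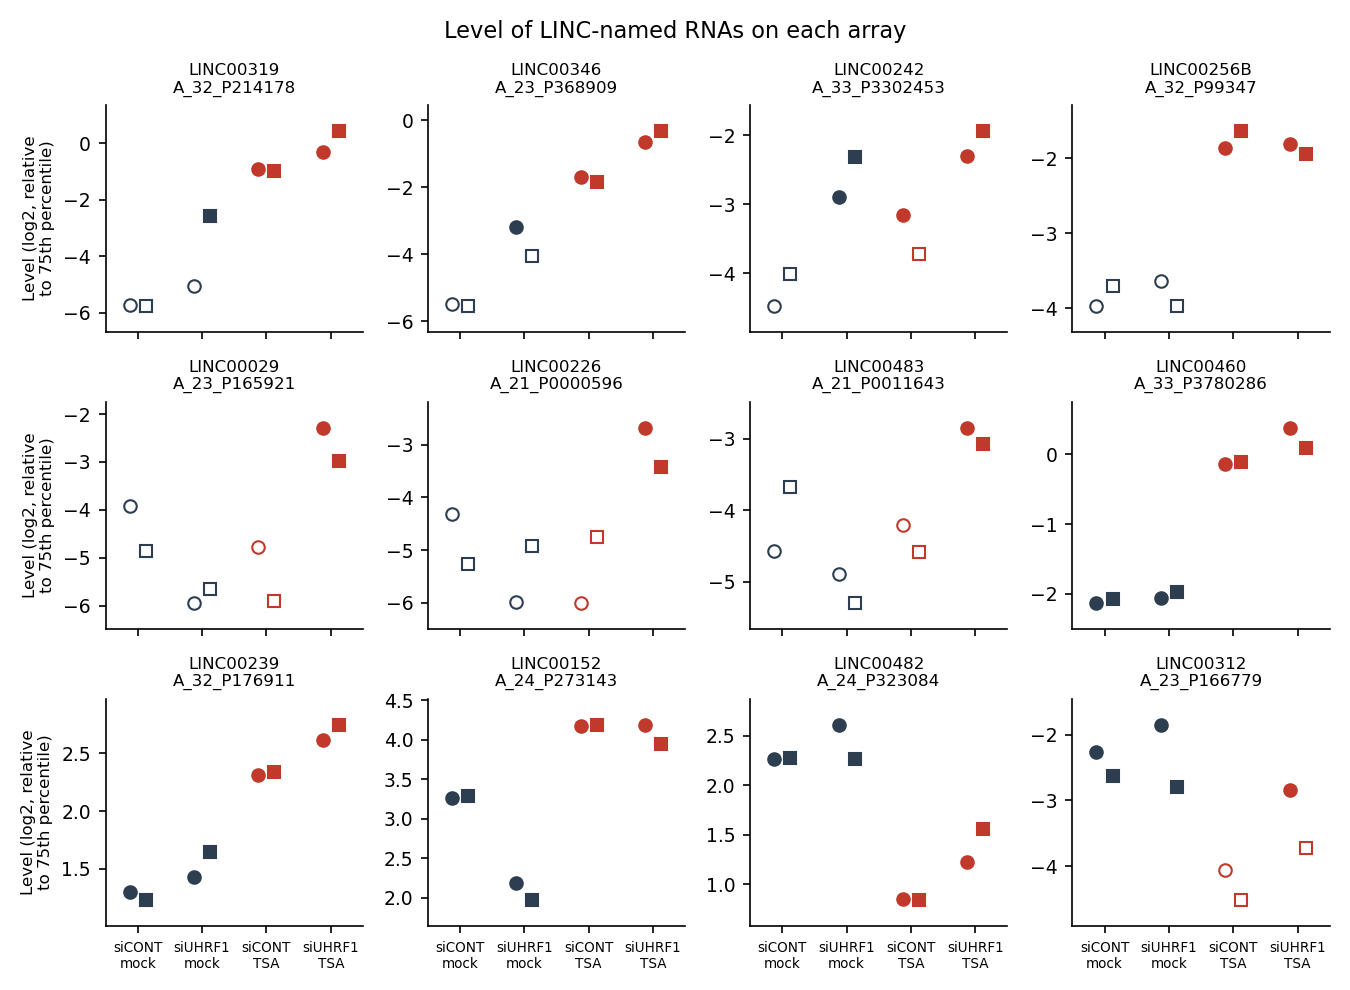
Level on each array (y axis, log2 relative to the array's 75th percentile, scale differs between panels) of 12 LINC-named RNAs in the 4 groups (x axis). Circles are array or siRNA number 1 and squares number 2, dark symbols are mock and red symbols TSA, and open symbols were not well above background. LINC00029, LINC00226 and LINC00483 have filled symbols in the combination alone, and LINC00482 sits lower on the 4 TSA arrays (0.84 to 1.55) than on the mock arrays (2.26 to 2.61).

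A group of genes had a probe below background in siCONT with mock and above it with TSA in either siRNA state. LINC00256A and LINC00256B, now FAM225A and FAM225B, lie close together on chromosome 9 as near-identical copies, so a probe may read both. LINC00256B had −3.97 and −3.70 in siCONT with mock, −3.64 and −3.97 after depletion, −1.87 and −1.64 with TSA, and −1.82 and −1.95 in the combination. It was at least 3.12-fold higher with TSA alone (adjusted p = 0.000805) and at least 2.86-fold higher in the combination (adjusted p = 0.000538). Depletion added nothing that passed the test under TSA, where it changed LINC00256B by −0.13 (SE 0.18, adjusted p = 0.645). LINC00256A rose at least 2.60-fold with TSA (adjusted p = 0.00323) and at least 1.30-fold in the combination (adjusted p = 0.00996). LINC00310, on chromosome 21, rose at least 1.76-fold with TSA (adjusted p = 0.0362) and at least 1.71-fold in the combination (adjusted p = 0.0329). Its levels after depletion under mock were −5.63 and −3.03, so the siRNAs disagreed there. The dimmer LINC00476 probe, A_32_P104518, rose at least 1.37-fold with TSA (adjusted p = 0.00652) and at least 1.58-fold with both agents (adjusted p = 0.00336).

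The next genes had a probe below background in siCONT with mock and above it after UHRF1 depletion alone as well. LINC00340 and LINC00204B each also had another probe well above background in siCONT with mock. LINC00242, beside ERMARD on chromosome 6, had −4.47 and −4.00 in siCONT with mock, −2.90 and −2.32 after depletion, −3.15 and −3.72 with TSA, and −2.30 and −1.94 in the combination. Depletion arrays were the higher ones under both agents. The rise over siCONT with mock was at least 2.43-fold in the combination (adjusted p = 0.00251), and depletion alone at least 1.72-fold (adjusted p = 0.0333). LINC00340 is now CASC15, a long transcript at a neuroblastoma risk locus. Its probe A_24_P838448 had −5.52 and −5.59, −3.40 and −1.81, −2.69 and −2.82, and −2.25 and −1.40 in the order of groups above. The rise was at least 1.74-fold with depletion (adjusted p = 0.0301), 1.56-fold with TSA (adjusted p = 0.00924) and 2.98-fold with both (adjusted p = 0.00235), all as bounds. LINC00204B, now FAM223B, has a near-identical copy on chromosome X. Its probe A_24_P276463 had −4.82 and −4.96, −3.43 and −2.57, −1.26 and −1.18, and −1.52 and −2.0. This was at least 4.52-fold higher with TSA (adjusted p = 0.000735) and at least 3.11-fold higher in the combination (adjusted p = 0.000641), and depletion under TSA changed it by −0.54 (SE 0.30, adjusted p = 0.255).

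**Figure D3:**
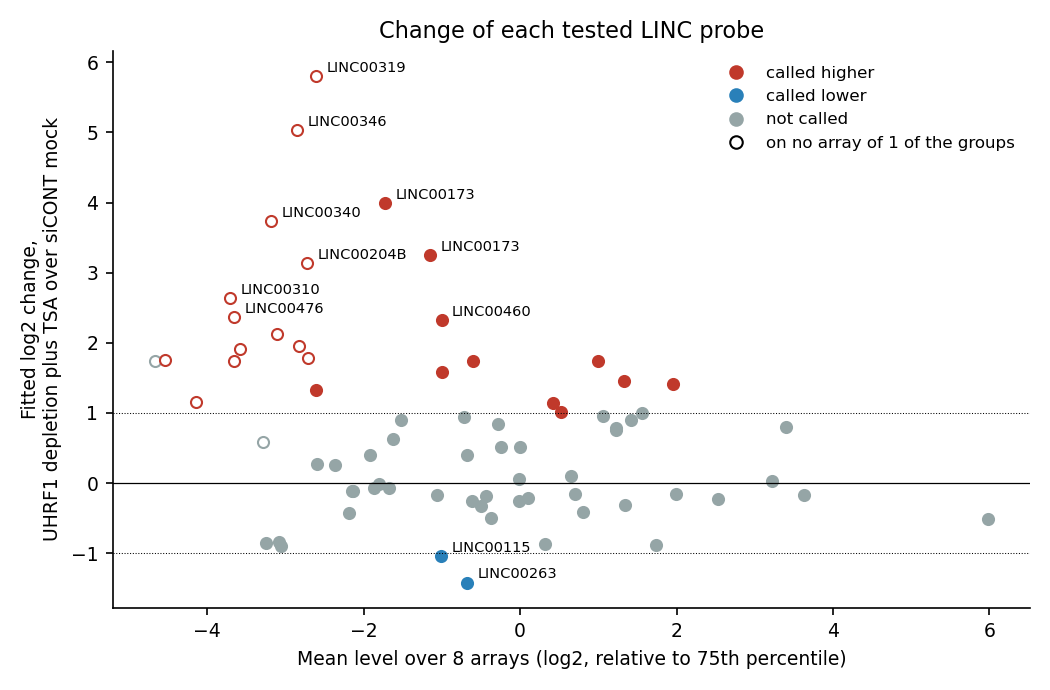
Fitted log2 change in the combination over siCONT with mock (y axis) against the mean level over 8 arrays (x axis) for 72 tested LINC probes, without the chromosome Y probe. Open circles were on no array of 1 of both groups, where the fitted value is no bound, and dotted lines mark 2-fold. Most called points lie above the upper line, and LINC00115 and LINC00263 lie below the lower one.

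Other probes were already well above background in siCONT with mock. LINC00239 went from 1.30 and 1.23 to 1.43 and 1.64 after depletion, 2.31 and 2.34 with TSA, and 2.62 and 2.75 with both. The 4 groups did not overlap. Its change was 1.06 with TSA (SE 0.13, adjusted p = 0.00213) and 1.42 in the combination (SE 0.13, adjusted p = 0.000517). The bright LINC00476 probe, for a transcript antisense to ERCC6L2, stood at 0.15 and 0.25, 0.70 and 0.75, 1.12 and 1.10, and 1.98 and 1.91. It rose by 1.74 in the combination (SE 0.11, adjusted p = 0.000192), while ERCC6L2 changed by 0.06 (SE 0.17, adjusted p = 0.807). With TSA alone ERCC6L2 rose by 1.01 (SE 0.17, adjusted p = 0.00691). The bright LINC00204B probe, A_33_P3371402, rose by 2.18 with TSA (SE 0.21, adjusted p = 0.00110) and by 1.59 in the combination (SE 0.21, adjusted p = 0.00176).

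Both falls came from genes measured on all arrays. LINC00263, renamed OLMALINC for its role in oligodendrocyte maturation, fell on probe A_33_P3323928. Levels were 0.08 and 0.09 in siCONT with mock, −0.64 and −0.93 after depletion, −0.72 and −0.67 with TSA, and −1.34 and −1.31 in the combination. Each agent alone lay about midway, at −0.88 for depletion (SE 0.13, adjusted p = 0.0217) and −0.78 for TSA (SE 0.13, adjusted p = 0.00671), both short of 2-fold. The combination changed it by −1.42 (SE 0.13, adjusted p = 0.000602), and the other LINC00263 probe by −0.86 (SE 0.26, adjusted p = 0.0350). SCD, the fatty acid desaturase gene beside it, changed by −2.16 (SE 0.21, adjusted p = 0.000648). LINC00115 had −0.14 and −0.22 in siCONT with mock and −1.06 to −1.40 on the other 6 arrays. It changed by −1.07 with depletion (SE 0.16, adjusted p = 0.0210), −1.19 with TSA (SE 0.16, adjusted p = 0.00300) and −1.04 with both (SE 0.16, adjusted p = 0.00326). The files place the LINC00115 probe on another chromosome than RefSeq places the gene, 1 of 4 such LINC probes.

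Of the 24 probes that rose in the combination, 11 also rose with TSA alone, 3 with depletion alone, 2 of these with either, and 12 with neither. The 3 comparisons share the siCONT mock arrays. Of the 24, 13 were on no array of siCONT with mock and 9 on all arrays. The 13 entered this comparison through the combination alone, so their calls are not independent of that filter. Signals on both arrays of the combination and on no other array were seen for 3 genes. Neither count was made over all probes, so neither can be read as a trait of LINC genes. LINC00029, beside BHLHE23 on chromosome 20, had −2.29 and −2.99 in the combination and between −3.93 and −5.95 elsewhere. Its bound was 2.14-fold over siCONT with TSA (adjusted p = 0.0180), 1.95-fold over depletion with mock (adjusted p = 0.00396) and 1.69-fold over siCONT with mock (adjusted p = 0.0264). LINC00226, in the immunoglobulin heavy chain region of chromosome 14, had −2.68 and −3.42 in the combination and −4.32 or less elsewhere. It rose at least 1.61-fold over siCONT with TSA (adjusted p = 0.0436), and against siCONT with mock it did not pass (adjusted p = 0.0507). LINC00483, now the protein-coding ANKRD40CL, had −2.85 and −3.07 against −3.68 or less elsewhere. The rise over siCONT with TSA was at least 1.71-fold (adjusted p = 0.0323). All 3 lay near the detection limit, so the sizes are bounds. They were picked for that detection and entered the tests through the combination alone. Their p-values are therefore not independent of that choice and give no separate support. LINC00479, a chromosome 21 gene beside RIPK4, was on both arrays of the combination at −2.03 and −2.42 and on 1 array of siCONT with TSA. It rose at least 2.25-fold over siCONT with mock (adjusted p = 0.0305). This probe, too, entered that test through the combination alone, so the p-value gives no separate support.

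The effect of TSA without depletion was read in siCONT cells. Of 69 LINC probes tested, 13 rose and 6 fell, against 10.4% higher and 8.21% lower of all probes. After averaging each siCONT pair, 3 LINC probes rose, LINC00346, LINC00204B and LINC00256A, and limma called 1.64% of all probes. In that fit no LINC probe fell, and 6 passed 2-fold lower at an unadjusted p under 0.05. Over all probes, 1714 of 23240 did so. Most of the named falls were smaller in the combination. LINC00312, known as a transcript lost in nasopharyngeal carcinoma, had −2.26 and −2.62 in siCONT with mock and was on no array of siCONT with TSA, where it was at least 2.46-fold lower (adjusted p = 0.0167). In the combination it was on 1 array, and the change was −0.84 (SE 0.42, adjusted p = 0.144). LINC00482, among the 5 brightest LINC genes, had 2.26 and 2.28 in siCONT with mock, 2.61 and 2.27 after depletion, 0.85 and 0.84 with TSA, and 1.22 and 1.55 with both. TSA lowered it in siCONT cells, by −1.43 (SE 0.17, adjusted p = 0.00214), and in depleted cells, by −1.05 (SE 0.17, adjusted p = 0.00492). LINC00085, now the protein-coding SPACA6, changed by −1.22 with TSA (SE 0.12, adjusted p = 0.00139) and by −0.50 in the combination (SE 0.12, adjusted p = 0.0196). LINC00246A, now FAM226A, which has a near-identical copy, changed by −1.06 and −0.19 (SE 0.17 for both, adjusted p = 0.00513 and 0.383).

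UHRF1 depletion alone changed few members. Of 62 LINC probes, 3 rose (LINC00242, LINC00340 and LINC00204B) and 2 fell (LINC00152 and LINC00115), against 3.12% higher and 0.983% lower of all probes. After averaging each siCONT pair, limma called 0 LINC probes and 0.0715% of all probes, and 3 LINC probes passed 2-fold higher and 2 lower at an unadjusted p under 0.05, against 983 and 319 of 22391 over all probes. LINC00152 is CYTOR, a cytoplasmic RNA raised in many tumours, colorectal ones included. Its levels were 3.26 and 3.28 in siCONT with mock, 2.18 and 1.97 after depletion, 4.18 and 4.19 with TSA, and 4.18 and 3.95 in the combination. Depletion changed it by −1.20 under mock (SE 0.14, adjusted p = 0.0112) and by −0.11 under TSA (SE 0.14, adjusted p = 0.585). Both TSA groups were above both mock groups, by 1.99 in depleted cells (SE 0.14, adjusted p = 0.000293) and by 0.91 in siCONT cells (SE 0.14, adjusted p = 0.00428), the second short of 2-fold.

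The agents were also compared in the presence of each other. UHRF1 depletion under TSA raised 9 of 73 LINC probes and lowered 0 by limma, with 1 lower past 2-fold at an unadjusted p under 0.05. At that unadjusted p, 898 of all 23845 probes tested were lower. Calls over all probes were 5.37% higher and 2.86% lower. In the fit with siCONT as 1 sample 1 LINC probe, LINC00087 (A_21_P0013870), was called, against 0.675% of all probes. TSA in UHRF1-depleted cells raised 18 of 72 and lowered 1, LINC00482, against 11.7% and 8.99%. This comparison uses no siCONT array directly, and 17 rose and 1 fell in the fit with siCONT as 1 sample, against 17.6% of all probes. LINC00319 (adjusted p = 0.00910) and LINC00346 (adjusted p = 0.000740) were among those that rose. For each, 1 of 2 depletion arrays under mock was well above background, so the rise has no exact size.

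The interaction is the effect of UHRF1 depletion under TSA minus that under mock. It was called for 11 of 75 LINC probes, 10 higher and 1 lower, against 2.80% and 2.06% of all probes. After averaging each siCONT pair, limma called 0 LINC probes and 0% of all probes, while 13 LINC probes passed 2-fold higher and 3 lower at an unadjusted p under 0.05. Over all probes, 1235 and 885 of 24589 did so. Under median scaling 6 LINC probes were higher and 3 lower, and over all probes 377 were higher and 1192 lower, where the 75th percentile gave 689 and 506. Several members had a negative difference with depletion under mock and a positive one under TSA. LINC00173 (A_33_P3331511) changed by −1.16 under mock (SE 0.41, adjusted p = 0.121) and by 2.24 under TSA (SE 0.41, adjusted p = 0.0190), an interaction of 3.40 (SE 0.58, adjusted p = 0.0334). LINC00460 (A_21_P0000640), an RNA raised in many carcinomas, changed by −0.99 under mock (SE 0.17, adjusted p = 0.0273) and by 0.41 under TSA (SE 0.17, adjusted p = 0.143), an interaction of 1.40 (SE 0.24, adjusted p = 0.0335). For LINC00173 and for LINC00460 this was 1 of 3 tested probes, and the others were not called. Interactions ranged from 0.26 to 3.40 over the LINC00173 probes and from 0.27 to 1.40 over those of LINC00460. LINC00204B had a negative interaction on probe A_24_P276463 (adjusted p = 0.0355), without an exact size because siCONT with mock was below background. The other LINC00204B probe, at −1.29, was not called.

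**Figure D4:**
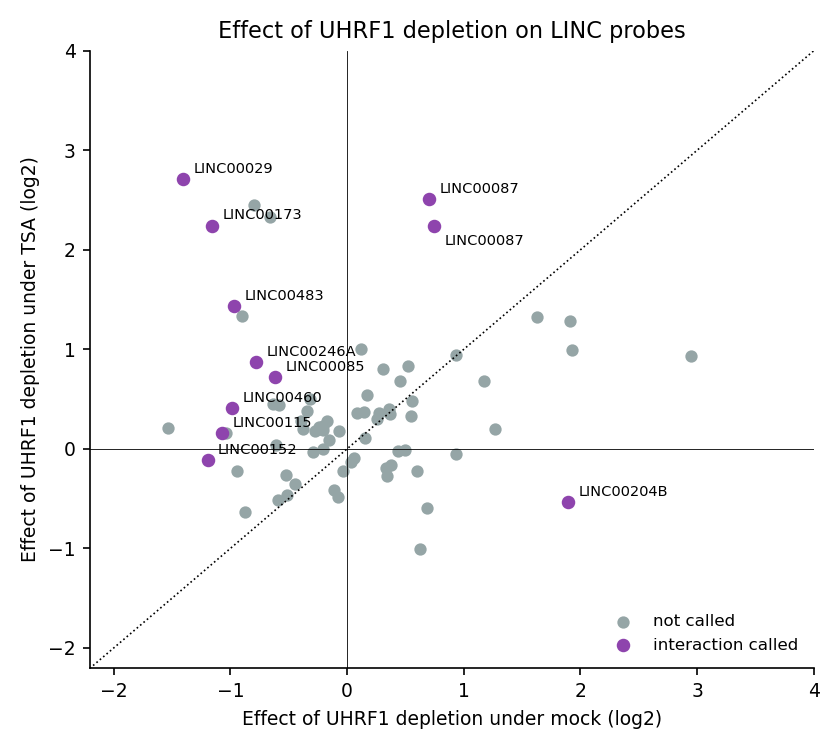
Effect of UHRF1 depletion under TSA (y axis, log2 difference of group means) against that under mock (x axis) for 74 tested LINC probes, without the chromosome Y probe. The dotted line marks equal effects, and purple points were called for the interaction. All of these lie above the line except LINC00204B.

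Probes of 1 gene did not always move together. LINC00173, an RNA described in granulocytes and lung tumours, has 3 tested probes along the plus strand of chromosome 12. The first, A_21_P0007502, stood at 0.79 and 0.89 in siCONT with mock, 0.32 and 0.78 after depletion, 0.68 and 0.75 with TSA, and 0.71 and 0.65 in the combination. It changed by −0.16 in the combination (SE 0.17, adjusted p = 0.477). The second, 1004 bases further toward the 3′ end, had −2.17 and −1.68, −3.67 and −2.50, −0.90 and −0.95, and 1.60 and 1.04, a rise of 3.25 (SE 0.41, adjusted p = 0.00156). The third, 2170 bases from the first, had −3.12 and −2.69, −4.53 and −2.89, −1.41 and −1.32, and 1.32 and 0.85, a rise of 3.99 (SE 0.51, adjusted p = 0.00168). Both downstream probes were highest in the combination on every array, whereas the upstream probe stayed within a range of 0.32 to 0.89. In the files the first and second probes name the same transcript variant.

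LINC00087, on the minus strand of chromosome X, showed a like split. The upstream probe, A_33_P3413188, changed by −0.16 in the combination (SE 0.22, adjusted p = 0.560). Probes 3281 and 3382 bases further toward the 3′ end rose by 1.32 (SE 0.16, adjusted p = 0.00138) and 1.74 (SE 0.22, adjusted p = 0.00159). The latter had −1.15 and −1.06 in siCONT with mock, −0.69 and −0.02 after depletion, −1.63 and −1.58 with TSA, and 0.66 and 0.61 in the combination, so TSA arrays were lowest in siCONT and highest in depleted cells. The upstream LINC00087 probe matches the LINC00086 probe in all but 2 of 60 bases, which are in capitals below, so each may read RNA of the other gene.
LINC00087, probe A_33_P3413188, chrX:134232439-134232498, minus strand: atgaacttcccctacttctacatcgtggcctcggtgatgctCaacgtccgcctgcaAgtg
LINC00086, probe A_33_P3294868, chrX:134556222-134556281, plus strand: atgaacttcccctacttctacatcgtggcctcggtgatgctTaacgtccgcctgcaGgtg

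LINC00174 and LINC00340 had the same order. For LINC00174 the upstream probe changed by −0.21 in the combination (SE 0.16, adjusted p = 0.298) and the probe 3741 bases downstream rose by 1.14 (SE 0.13, adjusted p = 0.00113). For LINC00340 the upstream probe, at 0.92 and 0.78 in siCONT with mock and 1.98 and 1.63 in the combination, changed by 0.96 (SE 0.30, adjusted p = 0.0400), short of 2-fold. Its other probes lie 83467 and 83556 bases downstream and had only bounds in siCONT with mock. Under depletion alone the LINC00340 probes went in opposite directions, by −0.63 upstream (SE 0.30, adjusted p = 0.207). These 4 genes were picked because their probes disagreed in sign in at least 1 comparison, so the order of the probes is a description.

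**Figure D5:**
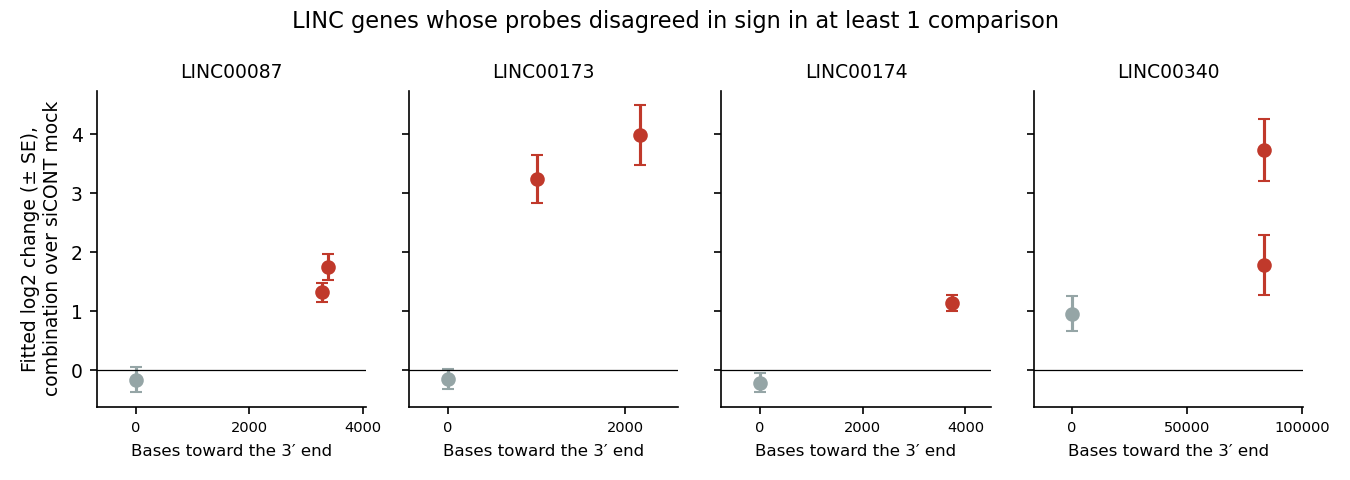
Fitted log2 change with its SE in the combination over siCONT with mock (y axis) for each tested probe of 4 LINC genes, by its distance in bases from the most upstream tested probe (x axis). Red points were called and grey ones were not, and in each of the 4 panels the grey point is the upstream probe.

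Genes with known roles in cancer or growth were read from a list. LINC00460 and LINC00467 had a probe that rose in the combination, LINC00152 and LINC00312 had none, and LINC00472, LINC00473 and LINC00511 were not tested. Among the 3 LINC00460 probes, A_33_P3780286 had −2.13 and −2.07 in siCONT with mock, −2.05 and −1.97 after depletion, −0.14 and −0.11 with TSA, and 0.38 and 0.08 with both. It rose by 2.33 in the combination (SE 0.14, adjusted p = 0.000155), A_21_P0000640 by 1.02 (SE 0.17, adjusted p = 0.00420), and the third changed by 0.94 (SE 0.40, adjusted p = 0.0992). LINC00467 had 4 probes with changes of 0.75 to 1.45, and 1 of them, A_33_P3223097, was called (SE 0.18, adjusted p = 0.00148). TRAF5, beside LINC00467, changed by −1.30 (SE 0.16, adjusted p = 0.00135). LINC00472, described as a tumour suppressor, and LINC00473, a target of cAMP signalling, were on no array, and LINC00511 was on 2 arrays with 1 of 2 probes.

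Among microRNA hosts and endoderm RNAs, LINC00340 was the only one of 4 on the array that was detected. LINC00261, an endoderm RNA beside FOXA2, LINC00461, a brain RNA, and LINC00478, the host of a microRNA cluster on chromosome 21, were on no array. Of LINC names later given a protein, LINC00493, LINC00086 and LINC00087 had a probe on all arrays and LINC00116, now MTLN, on none. LINC00493, which encodes the mitochondrial microprotein SMIM26, had the highest signal of all LINC probes, at 6.29 and 6.28 in siCONT with mock and 5.81 and 5.75 in the combination. Its change was −0.50 (SE 0.11, adjusted p = 0.0130), under 2-fold. The next brightest in siCONT with mock were LINC00265 (mean 3.84), LINC00094 (3.33), LINC00152 (3.27) and LINC00482 (2.27). LINC00265 had 6 tested probes with changes of −0.32 to 0.11 in the combination, none called. LINC00094, now BRD3OS, changed by 0.03 (SE 0.18, adjusted p = 0.890). Probe brightness depends on the probe, so these signals are not an order of abundance.

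Promoter sequence was set beside the calls, as the study concerns methylated CpG islands. RefSeq promoter windows (GRCh38.p14, 250 bases before to 50 after the start) were at hand for 99 of the 133 genes. A window was called CpG-rich with over 50% G and C and a ratio of observed to expected CG above 0.6. This held for 25 of 99 LINC promoters (25.3%) and for 46.8% of all 27305 promoters. Among LINC genes that rose in the combination it held for 3 of 12, namely LINC00173, LINC00340 and LINC00476. It held for 7 of 20 tested and not called, and for 11 of 56 on no array. The median number of CG per window was 6, 7 and 6 in these classes, and 14 over all promoters. The letters GGGCGG, read on both strands, were in 25.3% of LINC promoters and 44.6% of all, and TATAAA, also on both strands, in 16.2% and 12.0%. The windows of LINC00346, LINC00173 and LINC00029 are printed with each CG in capitals, since they hold 7, 18 and 8 of them and the genes were among those highest in the combination.
LINC00346 promoter, chr13:110870259-110870558, minus strand: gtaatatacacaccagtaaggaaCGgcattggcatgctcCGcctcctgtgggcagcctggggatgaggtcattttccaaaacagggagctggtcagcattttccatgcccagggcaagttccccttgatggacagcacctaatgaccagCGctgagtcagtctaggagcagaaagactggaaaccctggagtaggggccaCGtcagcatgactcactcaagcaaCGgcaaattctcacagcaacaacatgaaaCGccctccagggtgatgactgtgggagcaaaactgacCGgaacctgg
LINC00173 promoter, chr12:116533172-116533471, plus strand: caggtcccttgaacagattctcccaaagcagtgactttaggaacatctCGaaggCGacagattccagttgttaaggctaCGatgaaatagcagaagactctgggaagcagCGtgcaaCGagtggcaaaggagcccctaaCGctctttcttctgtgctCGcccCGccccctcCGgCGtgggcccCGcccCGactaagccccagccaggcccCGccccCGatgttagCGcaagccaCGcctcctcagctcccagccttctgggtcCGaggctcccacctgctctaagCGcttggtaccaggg
LINC00029 promoter, chr20:63036979-63037278, minus strand: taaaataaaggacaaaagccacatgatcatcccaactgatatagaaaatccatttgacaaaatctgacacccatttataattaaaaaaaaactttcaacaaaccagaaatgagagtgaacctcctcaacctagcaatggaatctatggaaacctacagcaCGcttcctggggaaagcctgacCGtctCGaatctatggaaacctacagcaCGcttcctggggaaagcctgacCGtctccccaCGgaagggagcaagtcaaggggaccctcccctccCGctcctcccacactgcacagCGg

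Coding neighbours of members were read from the same fit. Of 17 LINC genes that rose in the combination and had a neighbour, 13 had a tested one. SLC31A2 counts for both LINC00256A and LINC00256B, here and with TSA alone. By limma 0 of these 13 rose past 2-fold, 1 fell (TRAF5), and the highest change was 0.70 (ERMARD, SE 0.16, adjusted p = 0.0143), so none passed 2-fold higher at an unadjusted p either. ANKRD10, beside LINC00346, changed by −0.31 (SE 0.14, adjusted p = 0.116), and EFNB2, beside LINC00460, by 0.29 (SE 0.18, adjusted p = 0.216). Among LINC genes not called in the combination, 3 of 16 tested neighbours rose and 1 fell. CELA3A beside LINC00339, TMEM121 beside LINC00226 and PREX1 beside LINC00494 rose. H2BC11 beside LINC00240 changed by −1.04 (SE 0.18, adjusted p = 0.00482). Over all probes 14.6% were higher and 11.0% lower. In other comparisons some pairs rose together. With TSA alone 2 of 8 tested neighbours of risen LINC genes rose, ERCC6L2 with LINC00476 and CELA3A (adjusted p = 0.00451) with LINC00339. With depletion under TSA 1 of 5 did, TMEM121 (adjusted p = 0.00274) with LINC00226. Over all probes 10.4% were higher with TSA alone and 5.37% with depletion under TSA. CELA3A and TMEM121 were on no array of siCONT with mock, and their rises have no exact size. Long noncoding RNAs with other names gave 4 higher and 1 lower of 24 tested in the combination. These were 16.7% and 4.17%, against 14.6% and 11.0% of all probes. In limma's averaged fit SNHG1 alone kept its call, and NEAT1 had an adjusted p of 0.0883. NEAT1, the scaffold of nuclear paraspeckles, rose by 1.10 (adjusted p = 0.00556), and SNHG1, a snoRNA host, changed by −1.52 (adjusted p = 0.000255), whereas MALAT1 changed by −0.16 (adjusted p = 0.417). UCA1 rose by 3.81 (adjusted p = 0.00673) and H19 by 2.07 (adjusted p = 0.0459). MIAT was also called higher (adjusted p = 0.0250), but its probe was above background on only 2 arrays, so without an exact size.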

How the data were processed

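RNA of DLD1 cells was measured on 8 single-colour Agilent SurePrint G3 Human GE v2 arrays. Per the file headers, the deposited values are linear spot intensities from Agilent Feature Extraction 10.7.3.1, background-subtracted by the authors and not scaled between arrays, with probe positions in hg19. The authors used GeneSpring GX and do not state a normalization. The deposited series matrix holds the same intensity to rounding and was used as an alternative.

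Control spots and outlier spots were left out and the spots of a probe averaged. The log2 of the deposited intensity minus the array's 75th percentile was fitted with limma 3.58.1 in R 4.3.3, with 4 group means over all 8 arrays, for 6 comparisons. A probe was tested if well above background on both arrays of a compared group. Calls needed a Benjamini-Hochberg adjusted p under 0.05, over all probes tested, and a 2-fold change. Where a group was not well above background, a bound is given: the mean of the brighter group against a floor, which on each dim array is the lowest detected signal of any probe, or the probe's own signal if that is higher. Fits were tested on simulated data. Alternatives were median and quantile scaling, normexp, other filters, the series matrix, replicate blocks, siCONT arrays averaged and each array left out.

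Genes were named by brightness in siCONT with mock, by the largest called changes, by detection in 1 group alone, by role lists and by probes that disagreed. Chromosome Y genes were counted and not named, and a marker gene is not reported here. Sequences come from the array files and RefSeq. The members and lists were chosen with earlier results of these data known.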

Additional observations from a re-analysis of the deposited data

Results flagged for a closer look

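The effect of UHRF1 depletion differed between TSA and mock, by limma's interaction term, for 11 probes of 10 LINC genes. The difference, under TSA minus under mock on the log2 scale, was 4.12 for LINC00029, 3.40 for LINC00173 and 2.41 for LINC00483. It was 1.81 and 1.49 for both downstream probes of LINC00087, 1.65 for LINC00246A and 1.40 for LINC00460. LINC00085 had 1.33, LINC00115 had 1.23 and LINC00152 had 1.08, and LINC00204B had −2.43. Only 1 of 3 tested probes was called for LINC00173 and for LINC00460, where the lowest values were 0.26 and 0.27. For LINC00204B it was 1 of 2. LINC00029 and LINC00483 were below background outside the combination, LINC00204B in siCONT with mock and the LINC00087 probe A_21_P0013870 in siCONT with TSA, so these values carry no exact size. LINC00029 and LINC00483 also entered the test through the combination alone, so their calls are not independent of that filter. With the siCONT arrays counted as 1 sample, limma called 0 of these, with 13 LINC probes higher and 3 lower past 2-fold at an unadjusted p under 0.05. Over all 24589 probes tested, 1235 were higher and 885 lower by that measure.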

How the results depend on the processing

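Of 847 repeats of 50 named changes under the alternatives, 615 kept direction and call, 219 kept direction and lost the call, and 13 turned. Many of these repeats leave out 1 array and overlap with each other. The series matrix holds the same intensity to rounding, so its 50 kept calls were fixed in advance. With normexp, 18 of the 50 named changes kept their call and 32 lost it. The counts of called LINC probes are given for depletion, TSA, the combination, depletion under TSA, TSA in depleted cells and the interaction. With normexp they were 1, 4, 9, 3, 11 and 5. These were 1.61%, 5.80%, 12.3%, 4.11%, 15.3% and 6.67% of the LINC probes tested. The shares of all probes were 1.34%, 7.35%, 11.1%, 3.12%, 9.87% and 3.12%. On probes well above background on all arrays they were 2, 9, 11, 2 and 9 for the first 5, with fewer probes tested. Here the LINC shares were 3.85%, 17.3%, 21.2%, 3.85% and 17.3%, against 3.14%, 14.6%, 19.5%, 5.49% and 15.6% of all probes. Without a filter, depletion gave 1 (0.439% of LINC probes against 0.800% of all) and the combination 24 (10.5% against 12.7%). Depletion under TSA gave 4 (1.75% against 3.18%) and the interaction 1 (0.439% against 0.421%). With siCONT arrays averaged, depletion gave 0, TSA 3, depletion under TSA 1 and the interaction 0. The shares of all probes were then 0.0715%, 1.64%, 0.675% and 0%. Quantile scaling gave 5 for depletion under TSA, or 6.85% of LINC probes against 8.19% of all. Counting positive and significant spots as detected gave 102, 100, 112 and 116 probes in the groups.

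Same-numbered arrays of the depleted groups carry the same siRNA, and their deviations correlated at 0.33. Other same-numbered arrays shared only a number, with correlations of −0.05 to 0.07. With the replicate block the interaction had 4 calls (5.33% of LINC probes against 2.50% of all). No other count moved by over 1.5 times. A replicate block within each siRNA arm gave 3 for depletion, 4 for depletion under TSA and 0 for the interaction, and 18 for TSA in depleted cells, where the siRNA pairs the arrays. Those were 4.84%, 5.48%, 0% and 25% of LINC probes tested, against 3.41%, 7.80%, 0% and 20.8% of all.

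Leaving out each array in turn gave 0 to 11 calls for depletion, 16 to 23 for TSA, 20 to 27 for the combination, 3 to 10 for depletion under TSA, 14 to 25 for TSA in depleted cells and 0 to 17 for the interaction. Depletion had 0 calls without siCONT mock array 1, 1 without siCONT mock array 2 or either siCONT TSA array, and 11 and 8 without siUHRF1-1 and siUHRF1-2 under mock. The interaction had 0 without siCONT mock array 1 or siCONT TSA array 2, 1 without siCONT mock array 2 or siCONT TSA array 1, and 17 and 15 without the siRNAs under mock. Each of these fits left 1 array in a group. For depletion and the interaction, calls over all probes also fell without any siCONT array and rose without either siRNA under mock. Those swings can therefore not be read as a trait of LINC genes. Detected probes ranged over 57 to 62, 65 to 66, 69 to 72 and 75 to 77.

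Another probe of the gene turned the sign for LINC00087 (−0.16 in the combination, −0.48 for depletion under TSA, −0.41 for the interaction and 0.32 for TSA), LINC00340 (−0.63 for depletion), LINC00173 (−0.16 in the combination and −0.031 for depletion under TSA) and LINC00174 (−0.21 in the combination). The cause was not tested. Signal over background is a limit, since 137 of 228 probes were on no array.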
